A study of Mus musculus with 8 samples.

Results

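Meiotic double-strand break formation genes are the genes whose products place and make the DNA breaks that start recombination. The 6 members taken here are Spo11, Prdm9, Mei1, Mei4, Rec114 and Ccdc36 (now Iho1). In NCBIM37 (mm9) coordinates Spo11 lies at chr2:172803201-172819077 (plus strand), Prdm9 at chr17:15680043-15701318 (minus), Mei1 at chr15:81900426-81957244 (plus), Mei4 at chr9:81757277-82099614 (plus), Rec114 at chr9:58500663-58589366 (minus) and Ccdc36 at chr9:108305973-108330815 (minus). They were chosen by gene symbol among 23235 symbols with a value in every library, and 15899 of those symbols, including all 6 members, passed a filter of FPKM above 1 in at least 1 library. For 5 members the files list the current or given symbol, and Rec114 was matched through its synonym 2410076I21Rik.

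In meiosis, Spo11 and its partner Top6bl cut both DNA strands of chromosomes in leptotene and zygotene. Prdm9 binds DNA through its zinc fingers and methylates histone H3, which in mice sets where most breaks are made. Rec114, Mei4 and Ccdc36 (Iho1) assemble on the chromosome axes and are needed for cutting by Spo11, as is Mei1. The breaks are then repaired by strand exchange with the homologous chromosome, and in males most are repaired by the end of pachytene.

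RNA was measured in spermatocytes of WT and Cnot4-null male mice at the leptotene and zygotene (LZ) and the pachytene and diplotene (PD) stages, with 2 libraries in each of 4 groups and 8 in all. Cnot4 encodes a ubiquitin ligase of the CCR4-NOT complex, which shortens the poly(A) tails of mRNAs. Cnot4-null males (labelled Cnot4-KO) carried Cnot4 fl/fl with Stra8-Cre, a Cre that Stra8 regulatory sequence drives in germ cells before meiosis, and WT males were the controls. All libraries came from young adult C57BL/6 males, and per the methods the spermatocytes were sorted by Hoechst and propidium iodide fluorescence. The methods describe the duplicates as biological replicates, and neither they nor the labels say what libraries with the same replicate number share. The values are FPKM, which scale fragments by transcript length and by the mapped total of the library. The files hold no counts. In genes with a single annotated transcript, the smallest step between low values implied a depth, in 1e6 fragments, of between 4.74 and 7.78 per library.

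Cnot4 itself was listed at 36.0 and 34.9 FPKM (LZ) and 76.6 and 73.1 (PD) in the WT libraries, and 43.2 and 34.6 (LZ) and 65.9 and 53.5 (PD) in the Cnot4-null libraries. The deletion removes exon 2, and 1 value per gene cannot show the loss of an exon, so these levels do not test the genotype, which was taken from the labels.

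The labelled stages were checked against marker genes. The paper reports its own check of the identity and purity of the sorted cells, by SYCP3 and pH2AX staining. The summed FPKM of 8 pachytene-diplotene markers was 176 and 297 in WT and 181 and 55.6 in Cnot4-null at LZ, and 11708 and 10806 in WT and 5243 and 1771 in Cnot4-null at PD. Ldhc, a lactate dehydrogenase of meiotic and later germ cells, was the most abundant of them in each library. Spermatogonial markers, 8 in number and led by Stra8 on average, summed to 1047 and 976 in the WT libraries of LZ and to 1076 and 1007 in those of Cnot4-null, so the LZ libraries of both genotypes held them too. They summed to 28.3 and 19.4 in WT PD and to 552 and 595 in Cnot4-null PD. The 5 leptotene-zygotene markers, of which Sycp3 was the most abundant, summed to 1339 and 1654 at LZ and 1101 and 1141 at PD in WT, and 2939 and 1653 at LZ and 747 and 468 at PD in Cnot4-null.

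The Cnot4-null PD libraries stood apart from WT PD in markers of other cells. The 7 spermatid markers, led on average by the protamine gene Prm1, summed to 15840 and 7187 FPKM there, against 417 and 260 in WT PD. They summed to 1835 and 1521 in WT LZ, and to 4043 and 713 in Cnot4-null LZ. The paper reports that spermatogenesis of the Cnot4-null males arrests in metaphase I, and how these sums relate to that was not tested. The 7 Leydig cell markers summed to 17.2 and 9.89 in WT and 10.8 and 19.0 in Cnot4-null at LZ, and 116 and 7.07 in WT and 10077 and 22282 in Cnot4-null at PD. Insl3, a hormone of Leydig cells, made up most of that sum, at 9669 and 21608 in Cnot4-null PD and 104 and 4.90 in WT PD. Of the Leydig markers, 4 were at 0 in WT PD replicate 2, and none was at 0 in WT PD replicate 1 or in Cnot4-null PD.

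The summed markers of other somatic cells were also higher in Cnot4-null PD than in WT PD, though not every single marker was. The Sertoli marker Cldn11 was at 1.86 and 0.113 FPKM in Cnot4-null PD and at 0.384 and 0.633 in WT PD. Sertoli markers were present in WT LZ too, and macrophage markers in 1 WT LZ library. The 5 peritubular and vascular markers summed to 60.2 and 277 FPKM in Cnot4-null PD, where Acta2 led them. They summed to between 1.95 and 4.93 in the other 6 libraries. The 6 macrophage markers, among them Lyz2, summed to 26.6 and 1.03 at LZ and no more than 2.82 at PD in WT, and 6.19 and 4.26 at LZ and 20.1 and 92.5 at PD in Cnot4-null. The 6 Sertoli cell markers with a value, led by Clu, summed to 65.7 and 58.9 (LZ) and 8.83 and 16.5 (PD) in the WT libraries, and 6.62 and 10.1 (LZ) and 99.9 and 205 (PD) in the Cnot4-null libraries. Amh, a defining Sertoli marker, was at 0 in all libraries but Cnot4-null PD replicate 2, where it was at 0.129 FPKM.

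Between the genotypes at PD, limma called 8 of 8 spermatogonial, 7 of 7 spermatid, 7 of 7 Leydig, 4 of 4 tested peritubular and vascular, 3 of 5 tested Sertoli and 3 of 6 macrophage markers higher in Cnot4-null, beside 41.6% of all genes, a share that the macrophage list is near. Of the pachytene-diplotene markers 2 of 8 were called lower and none higher, and of the leptotene-zygotene markers 2 of 5 were called lower and 1 higher. The share of all genes called lower was 11.5%. After quantile normalization the higher calls were 6, 7, 7, 3, 1 and 0 in the same order of lists, beside 2835 of the 15899 genes. The sign of the Sertoli marker Wt1 turned there. After the libraries were rescaled to the same median, all 8 pachytene-diplotene markers were called lower, beside 6376 of the 15899 genes. The sign of the spermatogonial marker Nanos3 turned there. The part of these cells in each difference between the genotypes at PD given here was not tested. In bulk samples, fewer cells of a type and less RNA per cell cannot be told apart.

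**Figure D1:**
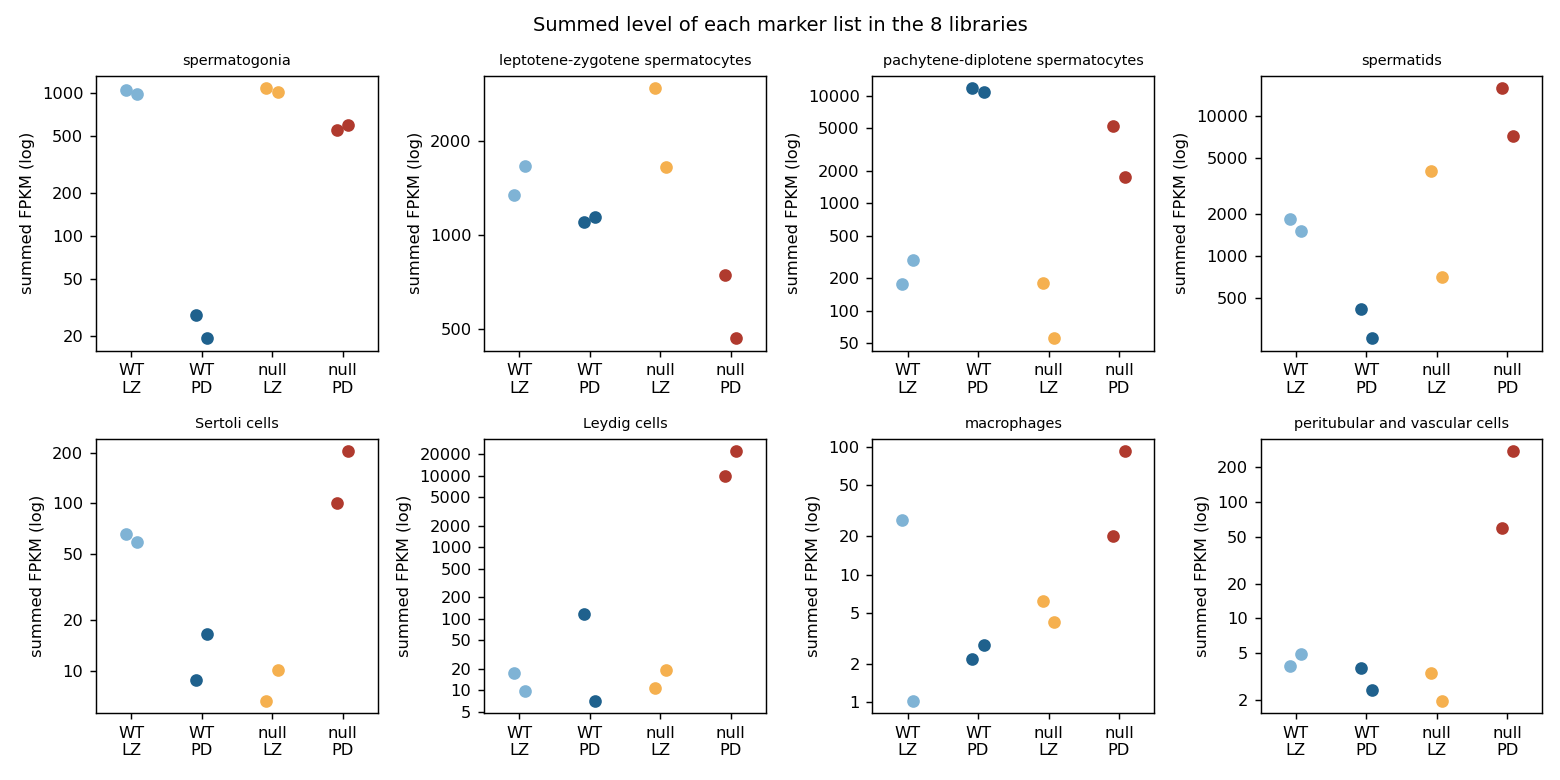
Each point is the summed FPKM of a marker list in 1 library, on a log axis, with replicate 1 to the left of replicate 2. The Cnot4-null PD libraries lie above both WT PD libraries for spermatogonial, spermatid, Sertoli, Leydig, macrophage and peritubular and vascular markers, and below them for both spermatocyte lists.

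Spo11, the catalytic subunit, was the member that was higher at PD than at LZ. Its level was 14.5 and 30.2 FPKM (LZ) and 134 and 147 (PD) in the WT libraries, and 24.5 and 11.7 (LZ) and 56.6 and 35.2 (PD) in the Cnot4-null libraries. The LZ libraries of the genotypes overlapped, both WT PD libraries lay above both Cnot4-null PD libraries, and all PD libraries lay above all LZ libraries. In order, the group means were 140 ± 9.56 in WT PD, 45.9 ± 15.2 in Cnot4-null PD, 22.3 ± 11.1 in WT LZ and, lowest, 18.1 ± 9.07 in Cnot4-null LZ (SD, n = 2). A single value per gene cannot separate the Spo11 splice forms, of which the longer is known from early prophase and the shorter from later stages.

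Prdm9, the histone methyltransferase that sets hotspots, ran the other way. Its level was 21.8 and 21.7 FPKM in WT and 32.5 and 17.0 in Cnot4-null at LZ, and 0.275 and 0.576 in WT and 1.81 and 3.42 in Cnot4-null at PD. The LZ libraries overlapped between the genotypes, and the WT PD libraries were the lowest of the 8. The means were 24.8 ± 11.0 in Cnot4-null LZ, 21.8 ± 0.0684 in WT LZ, 2.62 ± 1.14 in Cnot4-null PD and 0.426 ± 0.213 in WT PD (SD, n = 2). The values in WT PD correspond to about 7 and 16 fragments and those in Cnot4-null PD to about 36 and 56. The exact 95% Poisson intervals, 0.111 to 0.567 and 0.329 to 0.936 FPKM in WT PD and 1.27 to 2.51 and 2.59 to 4.45 in Cnot4-null PD, did not meet between the genotypes, and they cover counting error only.

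Mei1 was at 19.3 and 17.4 FPKM at LZ and 1.15 and 0.991 at PD in WT, and 18.3 and 14.0 at LZ and 2.95 and 1.85 at PD in Cnot4-null. Its means, in order, were 18.4 ± 1.34 (WT LZ), 16.2 ± 3.003 (Cnot4-null LZ), 2.40 ± 0.780 (Cnot4-null PD) and 1.07 ± 0.112 (WT PD), and only the LZ groups overlapped. Mei4 was the lowest member at LZ, with 7.62 and 7.73 FPKM in WT and 9.78 and 10.8 in Cnot4-null. At PD it was at 0.314 and 0.205 in WT, about 7 and 5 fragments, and at 3.20 and 1.59 in Cnot4-null, about 58 and 24. Its groups did not overlap, with means of 10.3 ± 0.731 (Cnot4-null LZ), 7.67 ± 0.0725 (WT LZ), 2.40 ± 1.14 (Cnot4-null PD) and 0.260 ± 0.0767 (WT PD). Its exons share 186 bases with those of Gm16875 on the other strand, which has no value here.

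Rec114 was the highest member at LZ, with 61.9 and 58.7 FPKM in WT and 70.1 and 77.2 in Cnot4-null. At PD it was at 1.89 and 2.25 in WT, about 12 and 15 fragments, and at 35.4 and 20.9 in Cnot4-null, about 181 and 87. None of its 4 groups overlapped, with means of 73.6 ± 5.01 (Cnot4-null LZ), 60.3 ± 2.21 (WT LZ), 28.1 ± 10.3 (Cnot4-null PD) and 2.07 ± 0.255 (WT PD).

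Ccdc36 varied least between the stages in WT. It was at 21.2 and 26.7 FPKM (LZ) and 9.52 and 9.78 (PD) in the WT libraries, and 30.4 and 19.5 (LZ) and 5.24 and 10.5 (PD) in the Cnot4-null libraries. The genotypes overlapped at both stages, and no PD library reached an LZ library. Its means were 24.97 ± 7.72 (Cnot4-null LZ), 23.96 ± 3.88 (WT LZ), 9.65 ± 0.182 (WT PD) and 7.88 ± 3.72 (Cnot4-null PD).

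**Figure D2:**
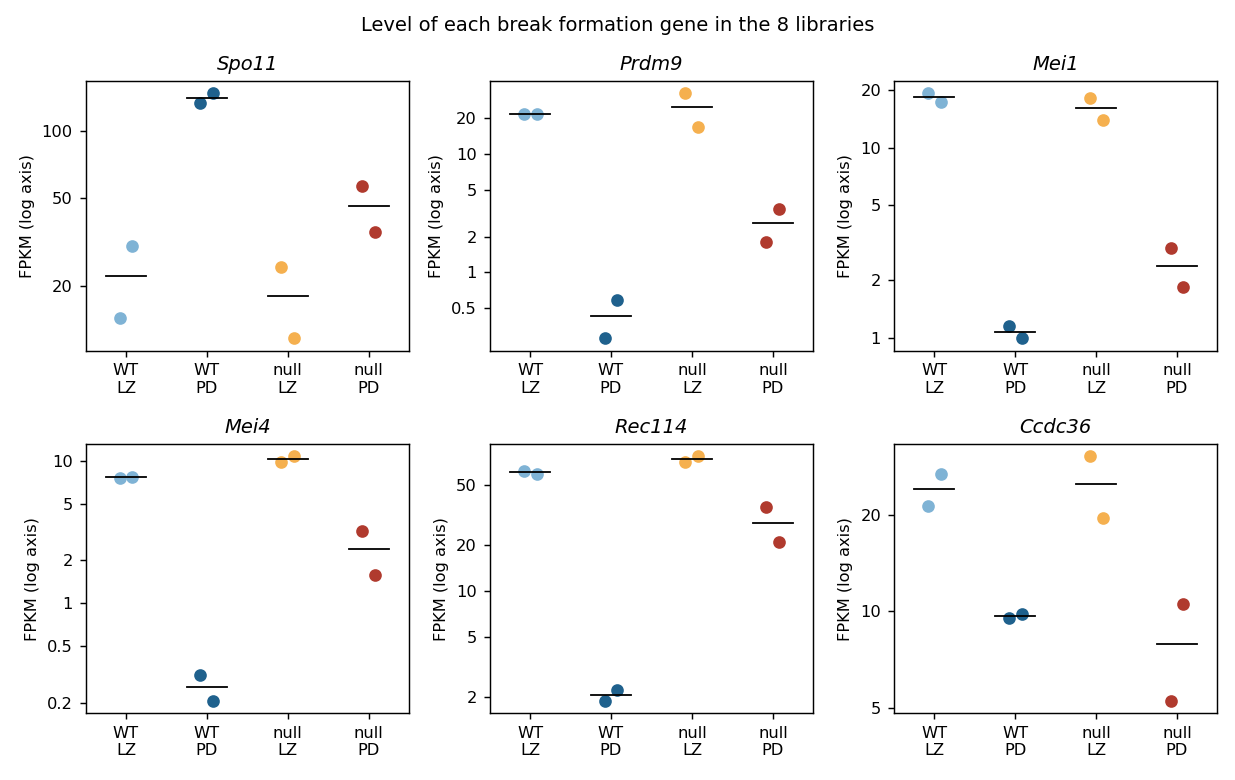
Each panel shows the FPKM of a member in the 8 libraries on a log axis of its own, with replicate 1 to the left of replicate 2 and a line at the group mean. Spo11 is highest in WT PD, at 134 and 147 FPKM, whereas Prdm9, Mei1, Mei4 and Rec114 are lowest there.

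From LZ to PD in WT, Prdm9, Mei1, Mei4, Rec114 and Ccdc36 fell and Spo11 rose. The fall was deepest for Prdm9, Mei4 and Rec114, whose PD level was under 4% of that at LZ. Spermatogonial markers moved with this stage change, with 7 of 8 called lower at PD and the sums given above. So did Sertoli markers, with 4 of 5 tested lower. Of the spermatid markers 3 of 7 were called lower and 4 were not called, a share near the 36.2% of all genes called lower. The part of these markers in the changes of the members was not tested. Changes were tested with limma on log2(FPKM + 1), where the added 1 shrinks changes at low levels, and a gene was called at an adjusted p under 0.05. All 6 members were called, beside 57.8% of the 15899 genes tested. The 5 members called lower at PD compare with 36.2% of all genes called lower, and the rise of Spo11 with 21.6% called higher. On the log2 scale Rec114 fell by 4.32 (standard error 0.27), Prdm9 fell by 4.01 (0.37), Mei1 fell by 3.22 (0.27), Mei4 fell by 2.79 (0.30) and Ccdc36 fell by 1.22 (0.35), while Spo11 rose by 2.68 (0.45). The median of all genes was -0.32, and called genes were higher at PD in 37.4% as deposited, 46.1% after quantile normalization and 54.7% with the libraries rescaled to the same median. The limma adjusted p was 2.75e-05 for Rec114, 0.000102 for Prdm9, 6.97e-05 for Mei1, 0.000189 for Mei4, 0.00159 for Spo11 and 0.0187 for Ccdc36.

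In FPKM without a pseudocount, the WT PD mean was 1.95% of the LZ mean for Prdm9, 3.38% for Mei4, 3.43% for Rec114, 5.83% for Mei1, 40.3% for Ccdc36 and 629% for Spo11. The median over the 7811 genes with a mean of at least 5 at LZ in both genotypes was 49.6%. On the log2 scale Ccdc36 had -1.22 as fitted, -0.85 after quantile normalization and -0.40 after rescaling. With a WT library left out it had between -1.38 and -1.06. Ccdc36 lost its call in 8 of 17 alternative settings, with an adjusted p of 0.0516 without WT LZ replicate 1, 0.103 without WT LZ replicate 2, 0.0902 without WT PD replicate 1, 0.0836 without WT PD replicate 2 and 0.313 after rescaling (limma, range 0.00753 to 0.313 over all alternatives). The other 5 members kept their calls in all 17.

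Between the stages in Cnot4-null, the same 6 members were called in the same directions, beside 46.0% of all genes, 18.2% called lower and 27.8% called higher. In this comparison 7 of 7 spermatid, 7 of 7 Leydig and 4 of 4 tested peritubular and vascular markers were called higher at PD, as were 3 of 6 macrophage and 2 of 5 tested Sertoli markers. Of the spermatogonial markers 2 of 8 were called lower and of the leptotene-zygotene markers 5 of 5, and their part was not tested. Prdm9 fell by 2.80 (standard error 0.37), Mei1 fell by 2.34 (0.27), Mei4 fell by 1.78 (0.30), Ccdc36 fell by 1.58 (0.35) and Rec114 fell by 1.40 (0.27) on the log2 scale, where the median of all genes was 0.19. Spo11 rose by 1.34 (0.45). Of called genes 60.5% were higher at PD as deposited, 37.4% after quantile normalization and 39.1% after rescaling. The limma adjusted p was 0.00131 for Prdm9, 0.000788 for Mei1, 0.00312 for Mei4, 0.00922 for Ccdc36, 0.00512 for Rec114 and 0.0434 for Spo11.

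The Cnot4-null PD mean was 10.6% of the LZ mean for Prdm9, 14.8% for Mei1, 23.3% for Mei4, 31.5% for Ccdc36, 38.2% for Rec114 and 254% for Spo11. The median over the same 7811 genes was 73.6%. On the log2 scale the rise of Spo11 ran from 0.77 to 1.85 over the alternatives, against 1.34 as fitted. The rise of Spo11 lost its call in 11 of 17 alternatives (adjusted p by limma from 0.0382 to 0.243), including those without Cnot4-null LZ replicate 2 (0.243), Cnot4-null PD replicate 1 (0.223), Cnot4-null PD replicate 2 (0.0719), WT PD replicate 1 (0.0809) and WT PD replicate 2 (0.0810), and after rescaling it was 0.164. Ccdc36 lost its call in 2 of 17, of which 1 left out Cnot4-null LZ replicate 1 (adjusted p = 0.0698 by limma, range 0.00155 to 0.0698).

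**Figure D3:**
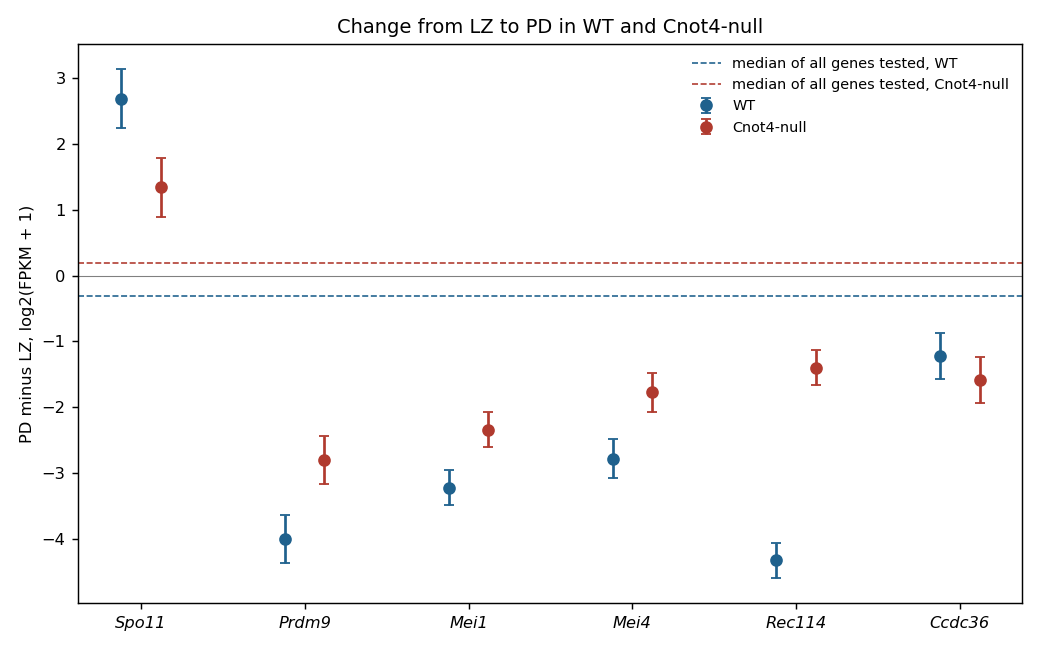
Points are limma estimates of PD minus LZ on the log2(FPKM + 1) scale with their standard errors, for WT and Cnot4-null, and dashed lines are the medians of all 15899 genes tested. Rec114 fell by 4.32 in WT and by 1.40 in Cnot4-null, and its intervals lie farthest apart of the 6.

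Since 5 of the 6 members were lower at PD in both genotypes, the sequences at their starts were examined. The RefSeq promoter table for GRCm38.p6, which spans 250 bases before to 50 after each start, held 6 promoters for 5 members, 2 of them for Prdm9. No promoter of Spo11 was matched. Searched on both strands were CNCCTCAG (a STRA8 motif), CACGTG (an E-box), GGCGGGA (E2F type) and CAGTTG (MYB type), which 7.94%, 7.15%, 11.3% and 13.7% of the 32851 promoters of that length hold. A match describes letters in the window and is not evidence of binding. Rec114 held an E-box starting 19 bases before its start. The first Prdm9 promoter held an E2F-type match 231 bases before its start. The second held STRA8 matches starting 41 bases before and 14 bases after its start, and an E2F-type match starting 46 bases before it that overlaps the first of these. The promoters of Mei1, Mei4 and Ccdc36 held none of the 4 motifs. The Rec114 promoter (chr9:58741510-58741809, minus strand) and the second Prdm9 promoter (chr17:15564305-15564604, minus strand) are shown because they hold the E-box and the STRA8 matches, with matched letters in capitals.
Rec114: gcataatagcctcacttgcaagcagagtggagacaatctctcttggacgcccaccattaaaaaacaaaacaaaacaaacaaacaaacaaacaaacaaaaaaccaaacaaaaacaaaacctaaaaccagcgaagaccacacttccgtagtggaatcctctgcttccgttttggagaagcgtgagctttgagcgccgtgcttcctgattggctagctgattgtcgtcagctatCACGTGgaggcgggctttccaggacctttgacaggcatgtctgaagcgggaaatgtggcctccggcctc
Prdm9: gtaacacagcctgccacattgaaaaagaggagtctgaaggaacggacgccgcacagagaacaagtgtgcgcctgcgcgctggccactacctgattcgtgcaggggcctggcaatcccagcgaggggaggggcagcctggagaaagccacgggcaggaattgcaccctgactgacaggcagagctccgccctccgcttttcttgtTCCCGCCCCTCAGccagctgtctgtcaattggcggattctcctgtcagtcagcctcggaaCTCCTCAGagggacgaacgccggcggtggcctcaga

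At LZ, before or while breaks are made, the genotypes were compared for the same genes. None of the 6 members was called between Cnot4-null and WT by limma, and none had an unadjusted p under 0.05, beside 15 of 15899 genes called, or 0.0943%, and 1013 with an unadjusted p under 0.05. The estimates of the 6 on the log2 scale were -0.29 for Spo11 (standard error 0.45), 0.11 for Prdm9 (0.37), -0.18 for Mei1 (0.27), 0.38 for Mei4 (0.30), 0.28 for Rec114 (0.27) and 0.03 for Ccdc36 (0.35). A p that misses the threshold does not show that the levels were equal. An exact test of 2 libraries against 2 cannot go below p = 0.333. The sign turned in some settings that left out a library for Spo11, Prdm9 and Ccdc36.

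At PD, Rec114, Mei4 and Prdm9 were called higher in Cnot4-null than in WT, and Spo11 lower. The 3 members called higher compare with 41.6% of all genes, the 1 called lower with 11.5%, and the 4 called in either direction, 66.7% of the members, with 53.1%. The mean level in Cnot4-null PD was 13.6 times that in WT PD for Rec114, 9.23 times for Mei4, 6.15 times for Prdm9, 2.24 times for Mei1, 0.816 times for Ccdc36 and 0.327 times for Spo11. The median over the 7811 genes was 1.43. Prdm9 was at 0.275 and 0.576 FPKM in the WT PD libraries, and Mei4 at 3.20 and 1.59 in the Cnot4-null PD libraries. The folds of Prdm9 and Mei4 thus move with the library left out. The Cnot4-null PD libraries also held higher sums of spermatogonial, spermatid and Leydig markers. Their sums of pachytene-diplotene and leptotene-zygotene markers were lower. In the leptotene-zygotene list this came from Sycp3 (mean 366 against 792 FPKM in WT PD) and Hormad1 (81.1 against 205). In WT neither of these genes was called between the stages. The means of Dmc1 (8.90 against 0.875), Sycp1 (138 against 112) and Meiob (12.5 against 10.3) were higher in Cnot4-null PD. The part of these cells in the differences of the members was not tested.

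On the log2(FPKM + 1) scale the median of all genes was 0.66 higher in Cnot4-null PD, and changes are given here as fitted and then relative to that median. Rec114 was 3.20 higher (standard error 0.27, adjusted p = 0.000230 by limma), and 2.54 relative to the median. Mei4 was 1.39 higher (0.30, adjusted p = 0.00762 by limma) and 0.73 relative to the median. Prdm9 was 1.31 higher (0.37, adjusted p = 0.0212 by limma) and 0.65 relative to the median, and its sign turned after quantile normalization. Mei1 had an estimate of 0.70 (0.27, adjusted p = 0.0613 by limma), 0.03 relative to the median, with the opposite sign in both scaling alternatives, and it was called with a pseudocount of 0.1 (adjusted p = 0.0327). Spo11 fell by 1.63 (0.45, adjusted p = 0.0197 by limma), or -2.29 relative to the median. Ccdc36 had an estimate of -0.33 (0.35, adjusted p = 0.437 by limma), -0.99 relative to the median, with the opposite sign when Cnot4-null PD replicate 1 was left out.

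How the libraries are scaled bears on these calls. As deposited, 6619 genes were called higher and 1830 lower in Cnot4-null PD, and 78.3% of called genes were higher. After quantile normalization 41.0% were higher, with 2835 higher and 4078 lower, and with the libraries rescaled to the same median 36.9%, with 3724 higher and 6376 lower. Rec114 (higher) and Spo11 (lower) were called with the same sign in all 3 scalings. Prdm9 had -0.07 after quantile normalization (adjusted p = 0.883 by limma, range 0.00659 to 0.883) and 0.63 after rescaling (0.146). Mei4 had 0.08 after quantile normalization (0.869, range 0.00219 to 0.869) and 0.80 after rescaling (0.0470). Ccdc36 was called lower in both, with -1.26 (0.0314) and -1.62 (0.00317), and its adjusted p over all alternatives ranged from 0.00317 to 0.776.

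Calls at PD also changed when a single library was left out. Each such fit has fewer residual degrees of freedom, and its spread comes only from the groups that keep 2 libraries. A lost call there is thus not a result of the library left out alone. Without WT PD replicate 1, 2 of the 6 members were called, and without WT PD replicate 2 only 1. Calls over all genes fell as well, from 8449 to 4341 and 4057. In the first case Spo11 and Prdm9 lost their calls (limma adjusted p = 0.0846 and 0.124), and in the second Spo11, Prdm9 and Mei4 (0.103, 0.0744 and 0.0637). Cnot4-null PD replicate 2 had the lowest pachytene-diplotene and the highest Leydig marker sum of the PD libraries. Without it Spo11 and Prdm9 lost their calls and Mei1 was called, while fewer of all genes were called than in the full fit. Without Cnot4-null PD replicate 1 no member gained or lost a call, while more of all genes were called than in the full fit. The adjusted p of Spo11 ranged from 0.000948 to 0.140 over all alternatives and that of Rec114 from 0.000154 to 0.0136, and Rec114 was called in all 17. With both Cnot4-null PD libraries left out there is no comparison, so the results at PD were not obtained without them.

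The 883-base model of Rec114 in GENCODE vM1, on the minus strand, shares 24 exon bases with Nptn, a cell adhesion gene on the other strand. The methods and labels do not say that strand was used in counting, so reads in the shared stretch cannot be told apart. The UCSC models behind the FPKM were not used here, so how far the models overlap there is unknown. Nptn was at 55.6 and 61.2 FPKM in WT and 76.1 and 77.9 in Cnot4-null at LZ, and 1.91 and 1.63 in WT and 18.6 and 34.6 in Cnot4-null at PD, levels close to those of Rec114 in each group. Its genotype difference at PD was 3.25 (standard error 0.29, adjusted p = 0.000280 by limma) and its root mean square difference from Rec114 over the 8 libraries, each gene centred on its mean, was 0.42 on the log2 scale. From LZ to PD, Nptn changed by -4.42 in WT and -1.56 in Cnot4-null, against -4.32 and -1.40 for Rec114. Its interaction of stage and genotype was 2.86 (0.41, adjusted p = 0.00385 by limma), against 2.92 for Rec114. In all 3 scalings Nptn was called higher at PD and positive for the interaction. In Cnot4-null PD, replicate 1 was the higher library for Rec114 and replicate 2 for Nptn. Nptn was examined because of this overlap, and its part in the value of Rec114 was not tested.

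The interaction asks whether the difference between the genotypes at PD differs from that at LZ, which is also whether the stage change differs between the genotypes. Only Rec114 was called among the 6 members, beside 30.0% of all genes called and 26.0% called with a positive sign. Nptn, which shares exon bases with Rec114, had a like estimate of 2.86, and its part was not tested. Of called genes 86.8% had a positive sign as deposited, 44.1% after quantile normalization and 29.8% after rescaling. The change of Rec114 from LZ to PD was 2.92 less negative in Cnot4-null (standard error 0.38, adjusted p = 0.00273 by limma), 2.28 relative to the median of all genes. It was called in all 16 alternatives, with an adjusted p from 0.00180 to 0.0209. The estimates of the other members were 1.20 for Prdm9, 1.01 for Mei4, 0.88 for Mei1, -0.36 for Ccdc36 and -1.34 for Spo11, with adjusted p = 0.119, 0.107, 0.117, 0.581 and 0.145 by limma. So the smaller fall of Prdm9, Mei1 and Mei4 in Cnot4-null and the smaller rise of Spo11 did not pass the test of the difference as fitted. With a pseudocount of 0.1, Prdm9 (2.25) and Mei4 (2.31) were called too (adjusted p = 0.0440 and 0.0274 by limma). Without Cnot4-null PD replicate 2, Mei4 and Mei1 were called as well (adjusted p = 0.0204 and 0.0487 by limma). The signs of Prdm9, Mei1 and Mei4 turned after quantile normalization, and that of Mei1 also after rescaling, where Spo11 (-2.80) and Ccdc36 (-1.70) were called too (adjusted p = 0.00983 and 0.0180 by limma). The interaction estimates share their libraries with the comparisons at each stage.

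The other genes of the pathway were taken from a list of 31, of which 29 had a value and were tested. Ankrd31 and Zcwpw2 had no matching symbol. From LZ to PD in WT, 17 of the 29 fell and 2 rose, beside 36.2% and 21.6% of all genes. After rescaling 10 were called lower and 7 higher, beside 4274 and 5170 of the 15899 genes. In Cnot4-null 21 fell and 1 rose, beside 18.2% and 27.8% of all genes. At LZ none was called between the genotypes by limma. At PD, 12 were called higher and 5 lower in Cnot4-null, beside 41.6% and 11.5% of all genes, with a median of 0.31 on the log2 scale against 0.66 for all genes. The share called higher is thus near that of all genes. After quantile normalization 4 were called higher and 10 lower, beside 2835 and 4078 of the 15899 genes. With rescaled libraries 4 were called higher and 17 lower, beside 3724 and 6376 of all genes. Most of the higher calls thus depend on the scaling. Only Dmc1 and Hells (higher) and Hormad1, Sycp3, Stag3 and Hsf2bp (lower) were called with the same sign in all 3 scalings.

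Among hotspot and break partners, 4 of 5 tested genes were called higher in Cnot4-null PD, beside 41.6% of all genes. After quantile normalization 2 were called higher, and after rescaling 1 higher and 2 lower. Top6bl (listed as Gm960), which pairs with Spo11 in the cutting enzyme, was at 9.68 and 8.51 FPKM at LZ and 0.249 and 0.285 at PD in WT, and 9.30 and 7.36 at LZ and 1.36 and 2.57 at PD in Cnot4-null. Its pattern over stage is thus the reverse of that of Spo11, and its sign at PD turned after quantile normalization. Zcwpw1, a reader of the histone marks that Prdm9 writes, was at 4.71 and 4.60 in WT PD, against 22.7 and 17.0 in Cnot4-null PD, and its call was lost after rescaling. Hells, a chromatin remodeler that opens hotspots with Prdm9, was at 15.0 and 14.7 in WT PD, against 74.8 and 72.6 in Cnot4-null PD, 2.24 higher on the log2 scale (standard error 0.19, adjusted p = 0.000254 by limma). Cxxc1, a subunit of a histone methyltransferase complex, was 0.72 higher (0.21, adjusted p = 0.0249 by limma), close to the median of all genes, and was called lower after rescaling to the same median. Ewsr1 had an estimate of 0.38, not called as deposited, and was called lower after rescaling.

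The axis proteins, on which Mei4, Rec114 and Ccdc36 assemble, were called lower in 4 of 8 cases and higher in 1, beside 11.5% and 41.6% of all genes, and after rescaling lower in 6 and higher in 1. Hormad1, which recruits Ccdc36 to the axis, was at 192 and 218 FPKM in WT PD, against 104 and 57.8 in Cnot4-null PD, and fell by 1.39 (standard error 0.36, adjusted p = 0.0162 by limma). Sycp3, of the axial element, fell by 1.17, Stag3, a meiotic cohesin subunit, fell by 1.19, and Sycp2 fell by 0.73 on the log2 scale, the last not called after quantile normalization. Rec8, another meiotic cohesin subunit, was at 0.692 and 1.01 FPKM in WT PD, against 8.72 and 5.41 in Cnot4-null PD. It was called higher (adjusted p = 0.00141 by limma), though not after quantile normalization. Rad21l was at 0 in 3 of the 4 PD libraries and at 0.536 in the other, Cnot4-null PD replicate 1. Hormad2 and Smc1b were not called as deposited and were called lower after rescaling, Hormad2 also after quantile normalization.

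Of the genes of break sensing and feedback, Atm, the kinase that limits the number of breaks, was at 0.730 and 0.628 FPKM in WT PD, against 4.33 and 6.51 in Cnot4-null PD. Trip13, which removes HORMAD proteins from synapsed axes, was at 5.28 and 5.29 in WT PD, against 19.6 and 18.4 in Cnot4-null PD. Both were called higher, by 1.91 and 1.67 on the log2 scale, Atm not after quantile normalization and Trip13 not after rescaling. H2afx was not called as deposited, with an estimate of -0.45, and was called lower in both scaling alternatives. The 2 of 3 genes called higher in this role compare with 41.6% of all genes. Of 5 end processing genes, Rad50 and Exo1 were called higher, by 0.89 and 0.86, a share near that 41.6%, and the sign turned for Exo1 in both scaling alternatives and for Rad50 after rescaling. Mre11a, Nbn and Rbbp8 were not called as deposited, with estimates of -0.44, -0.39 and -0.29, and were called lower in both scaling alternatives.

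Of 8 strand exchange genes, 3 were called higher and 1 lower, shares near the 41.6% and 11.5% of all genes, and after rescaling 1 higher and 5 lower. Dmc1, the meiotic recombinase, was at 75.7 and 91.5 FPKM (LZ) and 1.16 and 0.590 (PD) in the WT libraries, and 132 and 81.8 (LZ) and 8.58 and 9.22 (PD) in the Cnot4-null libraries. It was 2.42 higher in Cnot4-null PD (standard error 0.29, adjusted p = 0.000729 by limma). Mnd1 and Mcmdc2 were 2.27 and 0.95 higher, of which Mcmdc2 changed sign in both scaling alternatives and Mnd1 was called in neither. Hsf2bp, a partner of Brca2 in meiosis, fell by 1.09. Meiob, Spata22 and Brca2 were not called as deposited and were called lower after rescaling, Spata22 also after quantile normalization. Psmc3ip, which acts with Mnd1, was at 93.2 and 116 in WT LZ and 511 and 495 in WT PD, a rise between the stages like that of Spo11.

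**Figure D4:**
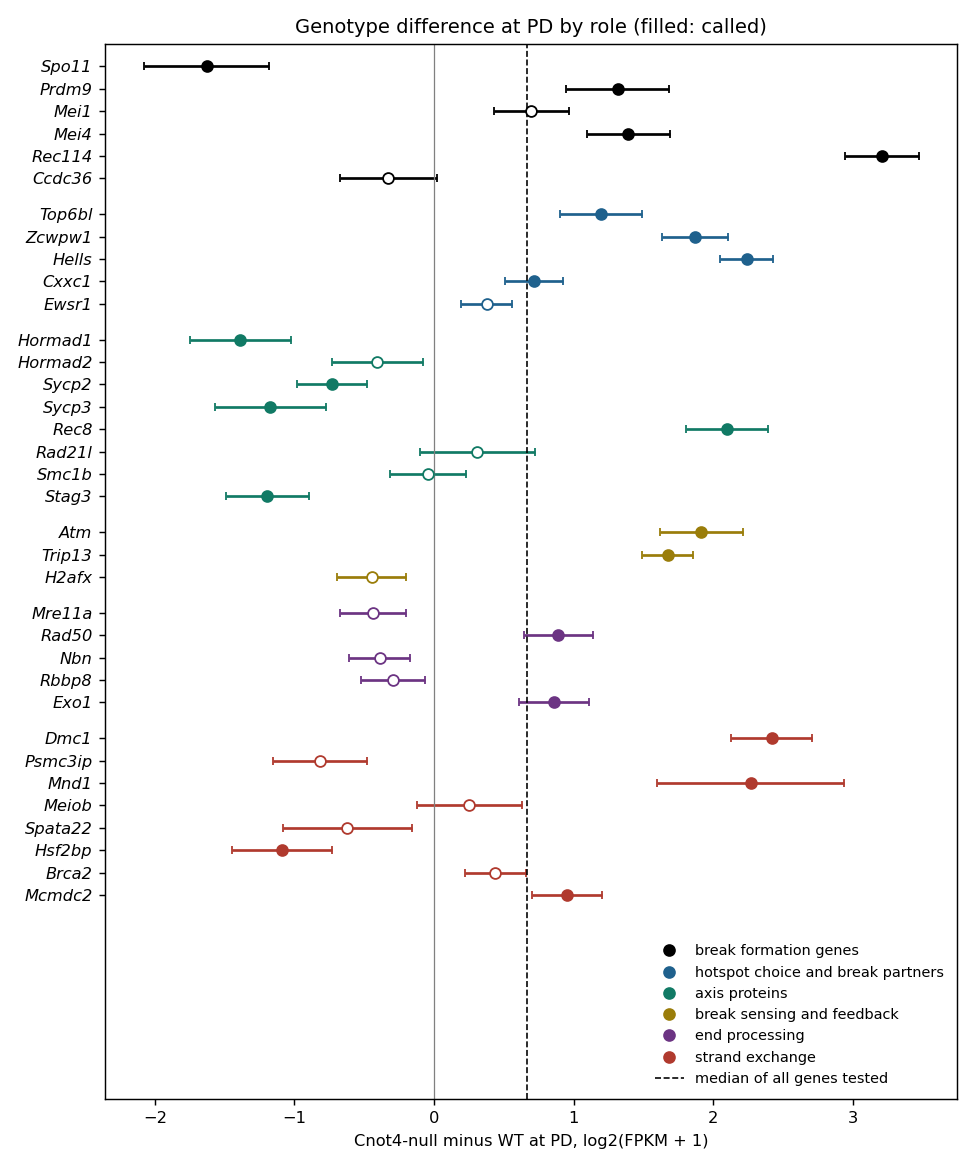
Points are limma estimates of Cnot4-null minus WT at PD on the log2(FPKM + 1) scale with their standard errors, for the 6 members as 1 group and the 29 other genes by role, filled where called, and the dashed line at 0.66 is the median of all genes tested. Genes lie on both sides of 0 in every group except hotspot choice and break partners. The signs of the called genes Prdm9, Top6bl, Cxxc1, Rad50, Exo1 and Mcmdc2 turn in at least 1 of the scaling alternatives. Those of Mei1, Ewsr1, Meiob and Brca2, which were not called, turn as well.

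Likeness was described by the root mean square difference of log2(FPKM + 1), each gene centred on its mean over the 8 libraries, among 9342 other genes with a mean FPKM of at least 5. The nearest to Spo11 were Zfp35 (0.18), Adad1 (0.22) and AK129341 (0.23). Nearest to Prdm9 were Yy2 (0.21), Pdlim5 (0.26) and Pet2 (0.26), and to Mei1 Degs2 (0.15), Gnptg (0.17) and Setdb2 (0.17). For Mei4 they were Magoh (0.16), Piga (0.19) and Mtfmt (0.20), for Rec114 Lmo4 (0.12), Rhox7 (0.22) and 3830403N18Rik (0.23), and for Ccdc36 Commd8 (0.16), B3galnt2 (0.16) and Slc25a40 (0.18). The mean of the members was nearest to Heatr5b (0.06), Cdc7 (0.09) and Lsm6 (0.10). Among the members, Mei1 and Mei4 were the closest pair (0.43) and Spo11 and Rec114 the most distant (3.01). These distances carry no test.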

How the data were processed

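The deposited FPKM were computed by the authors with Cufflinks 2.2.1 on UCSC gene models, from trimmed reads that TopHat2 2.1.1 placed uniquely on mm9, per the methods and the submitters' processing notes. The methods describe Smart-Seq2 of sorted cells, whereas the labels describe Trizol extraction and a TruSeq library, and which was used was not determined. No scaling between libraries is given in the sources used here.

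Tested were the 15899 of 23235 genes that exceeded 1 FPKM in any library. On log2(FPKM + 1) of the 8 libraries, limma 3.58.1 (lmFit, contrasts.fit, then eBayes with trend, under R 4.3.3) fitted a mean for each of the 4 groups, with 4 residual degrees of freedom. Tests were two-sided. Within each of 5 contrasts, Benjamini-Hochberg adjustment covered all genes tested. The p-values rest on 1 spread per gene, pooled over the 2 libraries of each of the 4 groups and moderated across genes by eBayes. It is not the spread of the compared groups alone.

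The alternatives were no filter, a mean FPKM of at least 5, a pseudocount of 0.1, quantile normalization, rescaling to the same median, no trend, only the libraries compared, a replicate block, an adjusted p under 0.01 and each library left out in turn. The depth implied, in 1e6 fragments, was 5.74 and 6.19 (LZ) and 7.13 and 7.78 (PD) for the WT libraries and 5.36 and 6.22 (LZ) and 5.79 and 4.74 (PD) for the Cnot4-null libraries. It comes from the FPKM of 1 fragment in genes with 1 transcript of 1 to 6 kb in GENCODE vM1 on NCBIM37, the assembly of mm9. Fragments behind a value were rounded from it with the longest transcript, and are approximate. The supplement of the study lists total reads and mapping efficiency per library, which were not used for this depth. There the last Cnot4-null PD entry has the most total reads, whereas the depth implied was lowest for Cnot4-null PD replicate 2.

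The genes named were the members, the listed genes of the pathway by role, the 3 nearest genes by the likeness rule, Cnot4, genes that share exon bases with a member, and the markers. The 31 genes of the pathway list do not count 1 more that was planned for it and is not reported here. The members and lists were chosen with earlier results of these data known. Sycp3, Dmc1, Meiob and Hormad1 stand in both a marker list and the pathway list, and Rhox5 had no matching symbol. All else ran in Python 3.11.15 (pandas 2.3.3, numpy 2.4.6) with intervals from scipy 1.17.1 and plots from matplotlib 3.10.9.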

Additional observations from a re-analysis of the deposited data

Results flagged for a closer look

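Of the 6 members and 29 other genes of the pathway, 12 were called by the limma interaction test at an adjusted p under 0.05. In these the difference between the genotypes at PD differed from that at LZ. The share is near the 30.0% of all genes called. Fewer of all genes were called with any LZ or WT PD library left out, and more with either Cnot4-null PD library left out. Of the 29, 8 were called with a positive and 3 with a negative sign, beside 4139 and 631 of the 15899 genes. After quantile normalization the counts were 3 and 4, beside 1548 and 1966 of all genes. Once libraries were rescaled to an equal median they were 0 and 16, beside 2177 and 5129 of all genes. Values are the log2 difference at PD minus that at LZ, where the median of all genes was 0.64. Rec114 had 2.92, with levels of 35.4 and 20.9 FPKM in Cnot4-null PD against 1.89 and 2.25 in WT PD. Nptn, which shares exon bases with Rec114, had 2.86, and its part in the value of Rec114 was not tested. Of hotspot and break partners, Hells had 1.98, Zcwpw1 1.77, Top6bl 1.31 and Cxxc1 1.02. Dmc1 had 2.098, Trip13 1.91, Atm 1.66 and Rec8 1.64. The axis genes Hormad1, Sycp3 and Sycp2 had -1.89, -1.88 and -1.15. In all 3 scalings (as deposited, quantile normalization and rescaling to the same median), the interaction was called with the same sign for Rec114, Hormad1 and Sycp3 only. The signs of Top6bl (-0.04 after quantile normalization) and Cxxc1 (-0.37 after rescaling) turned. The Cnot4-null PD libraries also held higher sums of spermatid, Leydig and spermatogonial markers, and lower sums of both spermatocyte lists. In the leptotene-zygotene list only Sycp3 and Hormad1 had lower means. The part of these markers in the 12 differences was not tested.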

How the results depend on the processing

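Of 504 values of the 6 members under the alternatives (17 per stage or genotype comparison and 16 for the interaction), 446 kept both their sign and their side of the threshold, 34 lost a call, 10 gained a call and 14 changed sign. At PD between the genotypes, 4 members were called as reported, beside 8449 of 15899 genes. With no filter on genes 2 were called, beside 7124 of 23235. After quantile normalization 3 were called, beside 6913 of the 15899 genes. With a pseudocount of 0.1, where Mei1 was called as well, 5 were called, beside 8258. At an adjusted p under 0.01, 2 members were called. For the interaction 1 member was called as reported, beside 4770 genes. There 3 were called with a pseudocount of 0.1, beside 5073 genes, and 3 after rescaling, beside 7306. From LZ to PD, only Ccdc36 lost calls in WT, and only Spo11 and Ccdc36 in Cnot4-null. Between the genotypes at LZ no member was called in any of the 17 alternatives. With a library left out, calls over all genes moved too. A library left alone in its group is assumed to vary like the other groups. The cause of these moves was not tested, except that a stricter limit calls fewer genes by construction.

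The signs that turned, as log2 changes, were these. At PD between the genotypes, after quantile normalization, Prdm9 had -0.0730 and Mei1 -0.77, after rescaling Mei1 had -0.19, and without Cnot4-null PD replicate 1 Ccdc36 had 0.11. For the interaction, after quantile normalization, Prdm9 had -0.19, Mei1 -0.59 and Mei4 -0.32, after rescaling Mei1 had -0.0428, and without Cnot4-null PD replicate 1 Ccdc36 had 0.0774 (from -0.80 to 0.0774 over the libraries left out). At LZ between the genotypes, Spo11 had 0.22 without WT LZ replicate 2 and 0.22 without Cnot4-null LZ replicate 2, Prdm9 had -0.34 without Cnot4-null LZ replicate 1, and Ccdc36 had -0.13 without WT LZ replicate 1 and -0.27 without Cnot4-null LZ replicate 1. With a library left out, Spo11 ranged at LZ from -0.80 to 0.22, Prdm9 from -0.34 to 0.56 and Ccdc36 from -0.27 to 0.34. None of these was called as fitted with the library left out.

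The replicate numbers did not show that libraries are paired: across genes, the deviations from group means in libraries of equal number correlated at between -0.07 and 0.19. When replicate number was fitted as a block, 6 members were called from LZ to PD in WT, 5 in Cnot4-null, 0 at LZ, 4 at PD and 1 for the interaction. Over the 15899 genes the calls with the block were 9085, 7128, 16, 8298 and 4355 in the same order. The member call lost was that of Spo11 in Cnot4-null.

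Depth limits the low values in WT PD, where Mei4 rests on about 7 and 5 fragments and Rec114 on about 12 and 15.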
